A study of Mus musculus with 4 samples.

Results

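The subject is the effect of a PyMT-carrying mammary epithelium on cultured mammary fibroblasts that kept Ets2, read from 2 of the 4 arrays of the series. The 2 arrays were chosen by genotype: PyMT;Ets2db/loxP fibroblasts, called PyMT Ets2-present, and Ets2db/loxP fibroblasts without the oncogene, called normal Ets2-present. The other 2 arrays, Fsp-cre;Ets2db/loxP (normal Ets2-null) and PyMT;Fsp-cre;Ets2db/loxP (PyMT Ets2-null), gave the same contrast in cells without Ets2 and shared no array with it. All 4 groups came from female FVB/N mice aged 9 weeks, and each was 1 array. By the paper's account, the PyMT tumours had not become invasive at that point. How many animals stood behind each array is not given in the sources used here. PyMT, the polyoma middle T antigen, was driven by the MMTV promoter in the mammary epithelium and not in the fibroblasts. Every group, controls included, carried 1 conventional knockout allele of Ets2 (db) and 1 conditional allele (loxP), so that Ets2-present cells had 1 intact copy. The Fsp-cre transgene, expressed from the promoter of a gene used as a fibroblast marker, was carried by the Ets2-null groups alone. The cells were grown in serum-containing medium and taken at the second passage, away from the epithelium. Ets2 was read by 1 probe set, at 11.86 (normal) and 11.21 (PyMT) in the Ets2-present arrays and at 11.89 and 11.22 in the arrays labelled Ets2-null. Its signal therefore did not set the Ets2-null arrays apart. The paper names the exons that the conditional allele targets, but whether the probes lie in them is not given in the sources used here. At the protein level, the paper's Western blot found ETS2 missing from PyMT Ets2-null fibroblasts. Its antibody stain for the activated protein pointed the same way in cultured cells. Both assays were shown for PyMT genotypes. Ets2-null is used below as a label.

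Fibroblasts beside a carcinoma are known to take on altered programs of matrix synthesis and breakdown, growth factor secretion, contractility and signalling to blood vessels and leukocytes. Ets2 is a transcription factor that growth factor signalling through the Ras and MAPK pathway activates, and metalloproteinase genes are among the known targets of ETS factors, often together with AP-1. In culture, cells are also known to change with growth rate, density and the mix of cell types that were plated.

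The values were log2 probe set levels. Each gene was read by its brightest probe set, and 8687 of 12394 genes reached 4.63, the 40th percentile of the table, on at least 1 array. A difference is the PyMT minus the normal level, so 1 is 2-fold. With 1 array on each side there is no replicate spread, no standard error and no test, and an effect of PyMT cannot be told apart from any other difference between the 2 cultures. As a yardstick, the differences of the 2 brightest kept probe sets of a gene disagreed with an SD of 0.51 over 3378 genes, which covers the probe sets and not the cultures. Where 1 array lay under 4.63 its value was raised to that level and the fold is given as "at least".

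PyMT Ets2-present fibroblasts had 471 genes at least 2-fold higher (5.42% of the kept genes) and 541 at least 2-fold lower (6.23%) than normal Ets2-present fibroblasts. At 4-fold there were 73 higher (0.840%) and 97 lower (1.12%). The median difference over all kept genes was -0.01, and 73.0% of them lay within 1.5-fold. Counts in the gene lists below are to be read against these shares. Those of the Ets2-null pair are to be read against its own 2-fold shares, 9.69% higher and 11.2% lower. The filter kept 111 genes through the PyMT Ets2-present array alone, and such genes can only be higher with PyMT. Serpinb2 and Tslp, which had the largest higher differences after raising, are among them. So is 1 gene each of the TGF-beta and BMP, growth factor, developmental transcription factor, antigen processing and pericyte lists. Of the 73, 39 had the normal array under the filter level, and of the 97, 48 had the PyMT array under it; after raising, 42 and 68 genes were left. A second kept probe set was at hand for 107 of the higher and 136 of the lower genes. It pointed the same way in 97 and 118 of them and was itself at least 2-fold away in 62 and 81.

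**Figure D1:**
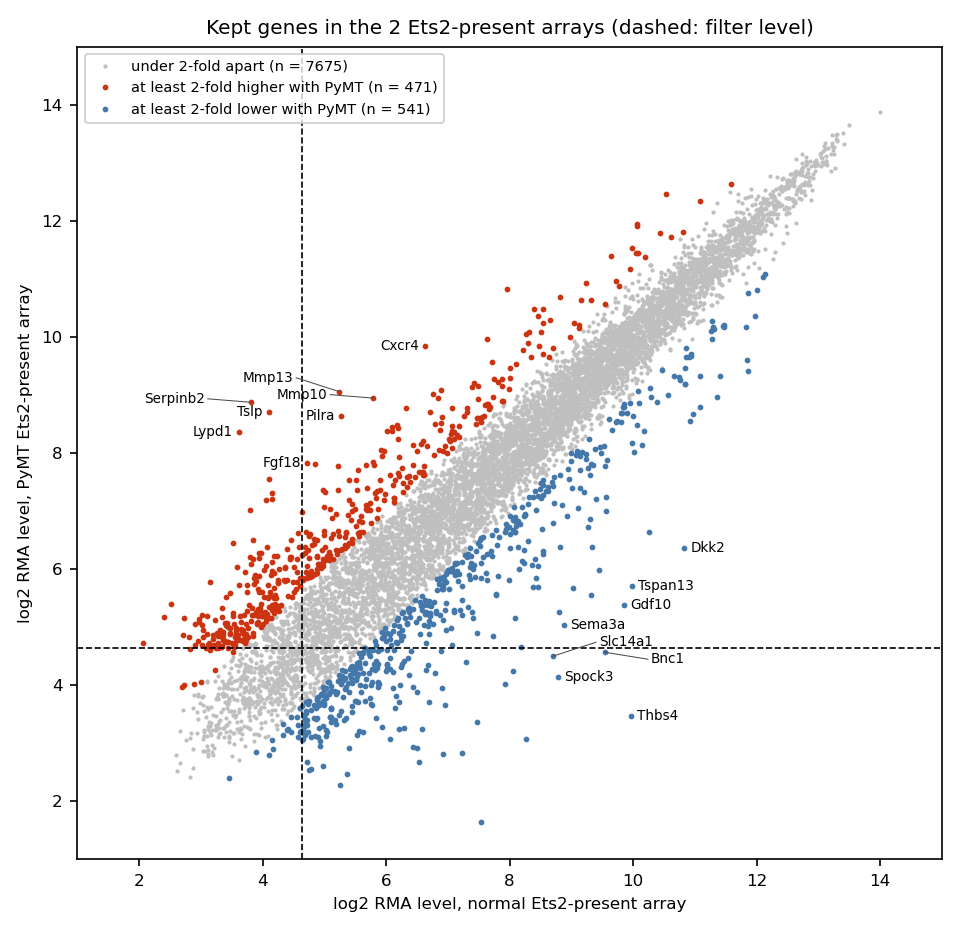
Log2 level of each kept gene in the normal (horizontal) and PyMT (vertical) Ets2-present arrays, 1 array each; red points are at least 2-fold higher and blue points at least 2-fold lower with PyMT, and the dashed lines mark the filter level of 4.63. The 471 red and 541 blue points lie on both sides of a dense diagonal, and many of them have 1 array under the filter level.

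Genes of mitosis and DNA replication were lower with PyMT. Of 28 kept members, 19 were past 2-fold on the lower side and 0 on the higher, with a median difference of -1.17. The largest difference was that of Bub1b, a kinase of the spindle checkpoint, which was at 7.06 in normal and 4.69 in PyMT cells, 5.17-fold lower. The mitotic cyclin Ccnb2 (8.54 and 6.26), the centromeric histone Cenpa (8.54 and 6.32), the kinesin Kif20a (7.78 and 5.57) and the kinase Aurka (7.38 and 5.25) were between 4.39-fold and 4.85-fold lower. Mki67, the gene of the proliferation antigen Ki-67, was lower by 1.74, topoisomerase Top2a by 1.33 and the cyclin-dependent kinase Cdk1 by 1.01. These genes were well above the filter level in normal cells. Without Ets2 the list had a median of -1.14, with 18 of 28 at least 2-fold lower, against 11.2% of all kept genes.

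The replication helicase genes Mcm2 to Mcm7 stood apart from the rest of that list, a split made after their values were seen. None of the 6 was 2-fold lower in the Ets2-present pair, where their differences ran from -0.67 to 0.11. Without Ets2 the same 6 ran from -1.89 to -0.67. Without them, 19 of 22 members were at least 2-fold lower in the Ets2-present pair, with a median of -1.31. G1 cyclins and inhibitors of cyclin-dependent kinases had 3 of 17 past 2-fold on the lower side and 0 on the higher (median -0.26): the transcription factors Mycn (-1.28) and Myc (-1.02), and the inhibitor Cdkn2a, which was under the filter level on both arrays. Whether the 2 cultures grew at different rates or densities was not tested, and the mitotic genes' values are to be read beside each of the following groups.

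Genes of cholesterol synthesis and uptake were lower in 17 of 18 kept members, with 5 past 2-fold, and the median was -0.72. Pmvk, which phosphorylates mevalonate phosphate, went from 8.20 to 6.14. The farnesyl diphosphate synthase Fdps was lower by 1.55 and the sterol reductase Tm7sf2 by 1.44, while lanosterol synthase Lss went from 8.42 to 7.02 and Mvd, the mevalonate diphosphate decarboxylase, from 6.46 to 5.46. Hmgcs1, the synthase near the head of the pathway and the brightest member, differed by -0.37. Among the Ets2-null arrays 14 of the 18 were at least 2-fold lower, against 11.2% of all kept genes, and the median was -1.21.

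Genes of the integrated stress response, which ATF4 and CHOP switch on when amino acids are short or the endoplasmic reticulum is loaded, had 4 of 16 past 2-fold, all of them lower (median -0.55). Chac1, a glutathione-degrading enzyme, was at 8.38 in normal and 5.68 in PyMT Ets2-present cells. Its levels in the Ets2-null pair were 8.38 and 8.10. The pseudokinase Trib3 was lower by 2.56 (its second kept probe set by 1.22). Sesn2, an inhibitor of growth signalling by mTORC1, was lower by at least 1.80 after raising, and Ddit3, the gene of CHOP, by 1.11. Without Ets2 these 3 genes had differences of 0.26, 0.55 and 1.18, and the list had a median of 0.08. Hypoxia and glycolysis genes had 5 of 23 at least 2-fold lower (median -0.34), namely the stress-induced Ndrg1 (8.93 to 6.91), the pyruvate dehydrogenase kinase Pdk1 (9.54 to 7.77), the mTORC1 inhibitor Ddit4 (11.45 to 10.19), the peptide hormone Adm (8.68 to 7.50) and the phosphofructokinase Pfkl (8.08 to 7.08, its second kept probe set by -0.73). The 1 gene past 2-fold on the higher side, the carbonic anhydrase Car9, was 0.60 higher after raising. Their median was 0.33 in the Ets2-null pair, where Adm was higher by 1.61.

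Ets2, whose probe set did not set the Ets2-null arrays apart, was lower by 0.65 with PyMT and by 0.675 in the Ets2-null pair. Among the 16 kept genes of its family only Etv4 was past 2-fold, at -1.42, and its difference was -0.02 after raising. Of the genes that MAPK signalling induces, Spry2, a feedback inhibitor of receptor tyrosine kinases, was 4.18-fold lower (11.40 to 9.33), though its second kept probe set differed by -0.78, and the zinc finger factor Egr1 2.28-fold lower (12.00 to 10.81). Phlda1 was 2.96-fold higher, and the AP-1 subunit Fosl1 was at 6.73 and 7.69, a difference of 0.96. In all, 1 of 18 was past 2-fold on the higher side and 4 on the lower (median -0.35, or -0.15 after raising), 2 of which, Etv4 and the AP-1 subunit Junb, were within 2-fold after raising.

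Matrix-degrading proteases had 5 of 22 members at least 2-fold higher and 1 lower (median 0.45). The collagenase Mmp13 was at 5.24 in normal and 9.06 in PyMT Ets2-present cells, 14.1-fold apart, and at 6.16 and 4.73 in the Ets2-null pair. Mmp10, a stromelysin, was at 5.79 and 8.95, against 6.11 and 5.56 without Ets2. Mmp3, the other stromelysin, was at 8.10 and 9.54, against 8.98 and 6.87. The PyMT Ets2-present array was thus the highest of the 4 for each of these 3 genes, and the PyMT Ets2-null array the lowest. The gelatinase Mmp9 was higher by 1.48 (its second kept probe set by 0.62), and Fap, a membrane protease of reactive fibroblasts, by 1.14. The membrane-type Mmp16 was at least 2.71-fold lower by its brightest probe set, while the other kept probe set differed by -0.51. The abundant gelatinase Mmp2 (10.51 and 10.37) and its activator Mmp14 (9.44 and 10.23) were less than 2-fold apart.

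Mmp13, Mmp12, Mmp3 and Mmp10 lie in this order on mouse chromosome 9 in the RefSeq annotation of GRCm38.p6, all on the + strand. Their upstream sequences are shown because these neighbours had PyMT differences of unlike size, and those of Serpinb2, the highest gene of the comparison, and of Thbs4 and Bnc1, the lowest, are set beside them. Each is the 250 bases before an annotated start, 5′ to 3′ on the gene's strand, from RefSeq: Mmp13 chr9:7272264-7272513 (+), Mmp10 chr9:7502092-7502341 (+), Mmp3 chr9:7445572-7445821 (+), Mmp12 (upstream start) chr9:7344147-7344396 (+), Mmp12 (downstream start) chr9:7347124-7347373 (+), Serpinb2 chr1:107511173-107511422 (+), Thbs4 chr13:92794819-92795068 (-), Bnc1 chr7:81992300-81992549 (-). Capitals mark the AP-1 word TGANTCA, the PEA3-type ETS word AGGAAG and, for the TATA box, the letters TATAAA, each of them searched on both strands. No marked word overlapped another in these stretches.
Mmp13: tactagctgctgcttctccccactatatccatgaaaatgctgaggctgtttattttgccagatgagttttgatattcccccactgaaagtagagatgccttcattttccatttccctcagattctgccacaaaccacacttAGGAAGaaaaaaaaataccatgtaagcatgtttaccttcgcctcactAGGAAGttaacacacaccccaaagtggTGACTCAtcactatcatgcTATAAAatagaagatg
Mmp10: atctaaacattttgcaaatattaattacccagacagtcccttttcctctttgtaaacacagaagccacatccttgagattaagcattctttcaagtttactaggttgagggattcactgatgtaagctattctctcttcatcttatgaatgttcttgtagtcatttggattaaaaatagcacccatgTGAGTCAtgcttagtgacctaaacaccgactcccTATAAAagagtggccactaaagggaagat
Mmp3: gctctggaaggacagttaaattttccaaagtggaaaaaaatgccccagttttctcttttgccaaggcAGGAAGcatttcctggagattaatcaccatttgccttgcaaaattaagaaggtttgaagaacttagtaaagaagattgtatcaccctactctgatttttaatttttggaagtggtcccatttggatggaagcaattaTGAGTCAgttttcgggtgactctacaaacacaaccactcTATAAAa
Mmp12, upstream start: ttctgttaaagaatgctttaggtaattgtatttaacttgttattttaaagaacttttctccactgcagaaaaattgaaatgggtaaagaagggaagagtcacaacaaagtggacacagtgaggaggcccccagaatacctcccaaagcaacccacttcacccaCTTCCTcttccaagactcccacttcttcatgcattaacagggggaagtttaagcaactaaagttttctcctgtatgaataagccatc
Mmp12, downstream start: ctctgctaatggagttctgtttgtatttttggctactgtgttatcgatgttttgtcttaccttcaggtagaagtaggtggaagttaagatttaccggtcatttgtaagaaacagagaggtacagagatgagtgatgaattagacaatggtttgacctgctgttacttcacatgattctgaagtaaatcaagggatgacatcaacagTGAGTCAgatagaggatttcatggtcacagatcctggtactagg
Serpinb2: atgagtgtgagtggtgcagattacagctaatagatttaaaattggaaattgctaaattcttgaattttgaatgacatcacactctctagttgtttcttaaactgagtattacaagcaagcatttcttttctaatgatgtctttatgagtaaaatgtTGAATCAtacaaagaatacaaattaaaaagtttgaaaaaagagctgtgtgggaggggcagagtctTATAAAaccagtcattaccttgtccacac
Thbs4: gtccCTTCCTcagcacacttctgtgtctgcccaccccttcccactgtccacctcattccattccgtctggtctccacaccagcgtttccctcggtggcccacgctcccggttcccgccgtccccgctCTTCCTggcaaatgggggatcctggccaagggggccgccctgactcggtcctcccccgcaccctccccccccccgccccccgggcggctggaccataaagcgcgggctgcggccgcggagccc
Bnc1: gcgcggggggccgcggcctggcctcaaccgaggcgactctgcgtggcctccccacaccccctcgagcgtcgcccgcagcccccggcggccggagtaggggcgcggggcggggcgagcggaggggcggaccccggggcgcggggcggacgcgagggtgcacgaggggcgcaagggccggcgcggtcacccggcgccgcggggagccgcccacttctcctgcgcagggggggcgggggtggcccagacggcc
Mmp13, Mmp10, Mmp3 and Serpinb2 each held 1 AP-1 word and 1 TATA word. Mmp13 also held 2 ETS words, and Mmp3 held 1. For Mmp12, whose difference was 0.79, the upstream start had 1 ETS word and the downstream start 1 AP-1 word. A further Serpinb2 start just downstream has the same 2 words in its own 250 bases. The 250 bases of Thbs4 held 2 ETS words and those of Bnc1 none of the 3. Of 32851 upstream stretches in the table, 6.75% held the AP-1 word, 29.5% the ETS word and 12.4% the TATA word. Among kept genes with a stretch in the table, the AP-1 word stood before 5 of 54 genes that were at least 4-fold higher, 8 of 68 that were at least 4-fold lower and 411 of all 7061. The ETS word stood before 23, 21 and 2247 of them and the TATA word before 12, 10 and 604. These are counts of letters and not of bound factors.

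Among protease inhibitors, 4 of 18 were at least 2-fold higher and 3 lower (median 0.18). Serpinb2, which blocks urokinase, was at 3.81 in normal and 8.88 in PyMT Ets2-present cells, at least 18.9-fold higher, and under the filter level in both Ets2-null arrays. Serping1, the complement C1 inhibitor, was higher by 1.89 (10.05 to 11.95) and Tfpi2, an inhibitor of plasmin and related proteases, by 1.80. Timp1, an inhibitor of metalloproteinases, was higher by 1.05. The acute-phase inhibitor Serpina3n was 10.2-fold lower (9.03 to 5.68) and Slpi, an inhibitor of leukocyte elastase, 2.14-fold lower. Serpinb1a, of the same function, was lower by 1.06. Serping1 and Serpina3n had differences of 2.01 and -1.81 without Ets2.

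The structural matrix genes went both ways. Collagens had 3 of 21 at least 2-fold higher and 2 lower (median -0.11): Col15a1 and Col18a1, collagens of basement membranes, were higher by 2.36 and 1.20, and the minor fibrillar Col5a3 by 1.69, while Col11a1 and Col12a1, of collagen fibrils, were lower by 1.62 and 1.30. The major chains Col1a1, Col1a2 and Col3a1, each above 12 on the log2 scale, differed by -0.09, -0.11 and 0.10. Of 36 matrix glycoproteins, 3 were higher and 5 lower. Thbs4, a thrombospondin of tendon and injured tissue, was at 9.96 in normal and 3.47 in PyMT cells, at least 40.2-fold lower, and was also lower in the Ets2-null pair (8.17 and 3.53). The laminin chain Lama2 was 4.44-fold higher and Efemp1, a fibulin, 3.99-fold, whereas the microfibril protein Fbn2 was 3.49-fold lower.

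Proteoglycans had 7 of 23 at least 2-fold lower and 2 higher (median -0.01). Small leucine-rich members, which bind and space collagen fibrils and were singled out after their values were seen, went both ways. Lum was at 9.26 and 6.73, Ogn at 10.01 and 8.02, Aspn at 8.84 and 7.11 and Dcn at 11.86 and 10.76. Without Ets2, Lum and Dcn were lower too, by 5.80 and 2.41, while Ogn and Aspn differed by -0.07 and -0.12. Fmod, Bgn and Prelp, of the same family, differed by 0.73, 0.27 and 0.11. Omd, also of the family, was lower by 1.53 as deposited and 0.48 after raising, and the glypican Gpc3 by 1.75 and 1.36. Spock3, an extracellular calcium-binding proteoglycan, was at least 17.7-fold lower, and Srgn, a proteoglycan of secretory granules, at least 3.14-fold higher. Prg4, the lubricin of joints, was higher by 1.17 with Ets2 and lower by at least 2.11 without.

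Among Wnt ligands, receptors and modulators, 4 of 20 were at least 2-fold higher and 3 lower (median -0.45, or -0.24 after raising). The filter kept 3 of the 20 through the PyMT Ets2-present array alone, so these could only be higher. The 3 lower genes encode secreted modulators. Dkk2, which binds Wnt co-receptors, was at 10.83 and 6.36, and Sfrp2, which binds Wnt proteins, at 10.25 and 6.64. Rspo2, an enhancer of Wnt signalling, was at 6.90 and 3.94 with Ets2 and at 6.26 and 8.62 without. The receptor Fzd8 was 3.86-fold higher and the intracellular inhibitor Nkd2 2.30-fold. The ligand genes Wnt4 and Wnt5b, also past 2-fold as deposited, were 0.52 and 0.43 higher after raising.

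In the TGF-beta and BMP group 4 of 24 genes were at least 2-fold higher and 6 lower (median 0.40). The higher ones were the ligand genes Tgfb3 (8.82 to 10.69), Tgfb2 (9.97 to 11.54), Inhba, the activin A subunit (10.05 to 11.45), and Tgfb1 (4.60 to 5.71). The co-receptor Tgfbr3 was lower by 1.84, the receptor Tgfbr2 was at 11.27 and 10.27, and the ligand carrier Ltbp1 was lower by 1.62. The matrix protein Tgfbi, an induced target, was lower by 1.59 and the BMP antagonist Grem1 by 1.43. The largest difference of the group was that of Gdf10, a BMP-like ligand, at 9.86 and 5.39 with Ets2 and at 12.09 and 5.33 without. Without Ets2, Tgfb1 was under the filter level on both arrays, and Tgfb3, Tgfb2 and Inhba were higher by 1.26, 1.33 and 0.34.

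Growth factors and IGF-binding proteins had 7 of 29 at least 2-fold higher and 4 lower (median -0.16). Higher were Fgf18 (4.73 to 7.83), the EGF receptor ligands Ereg (10.07 to 11.45) and Hbegf (8.35 to 9.66), and Csf1, the growth factor of macrophages (11.09 to 12.35). The neurotrophic factor Bdnf was higher by 1.01, and Fgf13 and Gdnf, past 2-fold as deposited, were 0.76 and 0.35 higher after raising. Lower were pleiotrophin Ptn (11.36 to 8.97), the epithelial mitogen Fgf10 (6.62 to 5.04), Igf1 (10.84 to 9.46) and its binding protein Igfbp4, by 1.21. Both EGF receptor ligands had differences without Ets2 of -0.30 (Ereg) and -0.18 (Hbegf), whereas Ptn, Fgf10 and Igf1 were lower there by 1.34, 1.46 and 1.31.

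Angiogenic ligands and receptors had 7 of 23 at least 2-fold lower and 2 higher (median -0.02). The lymphatic growth factor Vegfd was at 11.07 and 8.79, and Angptl4, an inhibitor of lipoprotein lipase, at 7.81 and 5.88. The chemokine Cxcl12 was lower by 1.87. The peptide Apln and the VEGF receptor Kdr were at least 2.82-fold and 2.80-fold lower, Adm 2.27-fold, and the guidance ligand Sema3c by 1.23 as deposited and 0.28 after raising. The 2 higher genes were Pgf, the placental growth factor (3.59 to 6.04), and Vegfc (7.59 to 8.65). Vegfa, the main growth factor of blood vessels, differed by 0.25. Without Ets2 the differences were -0.54 for Vegfd, -0.10 for Angptl4, -4.51 for Cxcl12 and 0.93 for Vegfa.

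Among cytokines, chemokines and their receptors, 9 of 28 were at least 2-fold higher and 6 lower (median 0.37). The filter kept 2 of the 28, Tslp and Cxcl2, through the PyMT Ets2-present array alone, so these could only be higher. Tslp, an epithelial-type cytokine that acts on dendritic cells, was at 4.10 and 8.70, at least 16.8-fold higher, and Cxcr4, the receptor of Cxcl12, at 6.63 and 9.85. Il11, of the interleukin-6 family, went from 9.24 to 10.93 and the membrane-bound chemokine Cxcl16 from 5.18 to 6.95. The chemokines Ccl17 and Ccl25 were higher by 1.42 and 1.36. After raising, the chemokine Ccl5 was higher by 1.15, the Cxcl16 receptor Cxcr6 by 1.55 and Cxcl2 by 0.07. Without Ets2, Tslp was under the filter level on both arrays, Cxcr4 and Il11 differed by -0.22 and -0.26, and Cxcl16 by 0.71. Lower with PyMT were Tnfsf11, the osteoclast factor RANKL (8.41 to 6.17), Cxcl5 (8.14 to 6.38), the interleukin-1 antagonist Il1rn (9.46 to 8.11), the scavenging chemokine receptor Ackr3 (9.24 to 7.90) and the alarmin Il33 (7.33 to 6.26). Il6 and Ccl2 were under 2-fold apart, at -0.23 and 0.11. Interferon-stimulated genes had 3 of 15 higher and 1 lower (median 0.24, or 0 after raising), with Trim30a, a tripartite motif gene, at least 5.20-fold higher, Oas1a and Ifih1, sensors of foreign RNA, 1.09 and 0.22 higher after raising, and the factor Irf1 at least 3.42-fold lower.

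HOX genes, which record position along the body axis and are kept in cultured fibroblasts, had 9 of 22 at least 2-fold higher (7 after raising) and 0 lower (median 0.72, or 0.50 after raising). The filter kept 1 of the 22 through the PyMT Ets2-present array alone, so it could only be higher. All 6 kept members of the HoxB cluster, singled out after their values were seen, were among the 9, with differences from 1.06 to 1.78. They were led by Hoxb4 (5.41 to 7.18), Hoxb3 (5.89 to 7.36) and Hoxb9 (7.87 to 9.27). Hoxa3 (6.60 to 8.21), Hoxa2 and Hoxc13 made up the rest. Hoxb2 and Hoxa2 were 0.58 and 0.08 higher after raising, and none of 4 HoxD genes was 2-fold apart. The median was 0.56 in the Ets2-null pair, where 3 of 22 HOX genes (13.6%, against 9.69% of all kept genes) were at least 2-fold higher and 0 lower, and the HoxB genes ran from 0.66 to 1.78. Among other developmental transcription factors, 4 of 43 were higher and 8 lower (median -0.24): the forkhead gene Foxc2 went from 7.96 to 10.82 and the homeobox gene Dlx2 from 7.49 to 9.16, while Bnc1, a zinc finger gene of squamous and mesothelial cells, was at least 30.0-fold lower, Tbx3 4.58-fold and the tendon factor Scx at least 3.31-fold lower.

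**Figure D2:**
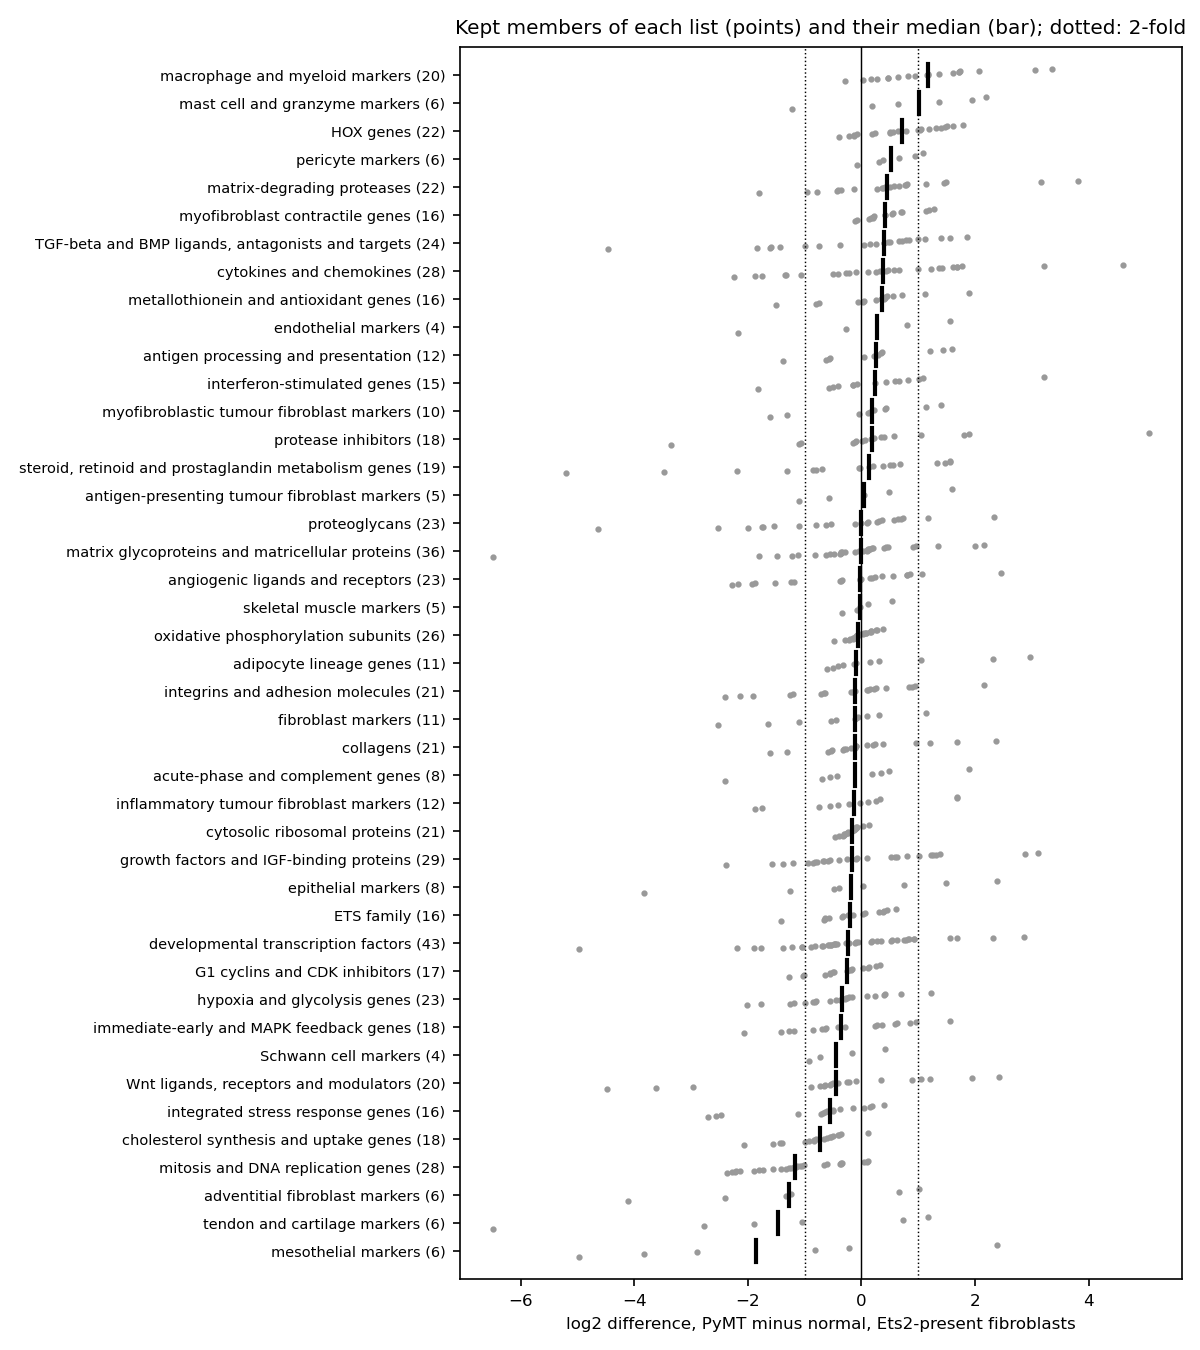
Log2 difference, PyMT minus normal, of each kept member (grey point) of every list with 4 or more kept genes in Ets2-present fibroblasts, with the list's median as a black bar and the number of kept genes in parentheses; the dotted lines mark 2-fold. Macrophage markers (median 1.16), mast cell and granzyme genes (1.01) and HOX genes (0.72) lie to the right. To the left lie the mesothelial (-1.86), tendon and cartilage (-1.47) and adventitial markers (-1.28), with 6 kept genes each, and the mitotic (-1.17) and cholesterol genes (-0.72), while ribosomal and oxidative phosphorylation genes keep close to 0. Points are values as deposited. After raising, the medians were -0.78 for mesothelial, -1.39 for tendon and cartilage, -0.81 for adventitial and 0.73 for macrophage markers. That of the mitotic genes stayed at -1.17.

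Adipocyte lineage genes had 3 of 11 at least 2-fold higher and 0 lower, with 6 of the 11 below 0 and a median of -0.10. The fatty acid synthase Fasn differed by -0.61 and Dgat2, of triglyceride synthesis, by -0.51. Pparg, the nuclear receptor that directs fat cell formation, was at 4.84 and 7.80, the fatty acid carrier Fabp4 at 7.64 and 9.96 and the factor Cebpa at 7.46 and 8.50. The other 2 kept Fabp4 probe sets differed by -0.14 and 2.58, so Fabp4's direction depended on the probe set. Fat cell markers such as Adipoq and Lep were under the filter level on all 4 arrays. Contractile genes of myofibroblasts were higher in 14 of 16 members, 3 of them by 2-fold or more (Lmod1, Actg2 and Smtn, by 1.27, 1.19 and 1.13), with a median of 0.41. Acta2, the smooth muscle actin that defines myofibroblasts, differed by only 0.22 from a level of 13.08. For comparison, 0 of 21 ribosomal protein genes (median -0.16) and 0 of 26 oxidative phosphorylation genes (median -0.06) were 2-fold apart.

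The fibroblast label was checked against markers: Vim, Col1a1, Col1a2, Col3a1 and S100a4, the gene whose promoter drives Fsp-cre, were all above 12 on both arrays. Of the 11 fibroblast markers 3 were at least 2-fold lower with PyMT (Lum, Dcn and the growth factor receptor Pdgfra, 11.82 to 10.18) and 1 higher (Fap). Of 6 kept adventitial markers 4 were lower and 1 higher, the lower ones being Cd34 (6.92 to 2.82, at least 4.89-fold), the complement regulator Cd55 (8.46 to 6.05), Ackr3 and Sema3c, and the higher one Anxa3 (by 1.01). The second kept probe set of Cd55 differed by -1.49. Of 6 mesothelial markers 3 were lower: Bnc1, the keratin Krt18 (8.05 to 4.23, at least 10.7-fold) and Msln, which was 0.73 lower after raising, while the keratin Krt19 was higher (4.98 to 7.36). The epithelial genes Epcam, Cdh1, Krt14 and Krt8 were under the filter level in both Ets2-present arrays, and of 23 epithelial markers measured 8 were kept. Krt18 and Krt19 are in the epithelial list too. Its members Krt5 (4.77 and 5.53) and Krt19 were above the filter level on both Ets2-present arrays. Krt18 was above it on the normal array and Grhl2 (4.66) on the PyMT array. No T, NK or B cell marker was kept.

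Of 20 kept macrophage and myeloid markers, 18 were above the filter level on at least 1 Ets2-present array, and 17 of these were higher with PyMT. As deposited 11 were past 2-fold, all higher, with a median of 1.16 over the 20; after raising it was 9, with a median of 0.73. Adgre1 and Mrc1, surface receptors of macrophages, were kept only through the PyMT Ets2-present array. The inhibitory receptor Pilra was at 5.28 and 8.63, the complement chain C1qb at 4.16 and 7.21, and the actin-bundling Lcp1 at 5.96 and 8.04 (a difference of 2.08, against 0.73 for its second kept probe set). The lysozyme Lyz2 was at 7.39 and 9.13, the protease Ctss at 6.21 and 7.93 and Csf1r, the receptor for Csf1, at 6.95 and 8.12. The summed level of all 20 kept markers (log2 of summed linear values) went from 11.51 to 12.59. Cd53, the brightest of the 20, was at 10.81 and 11.46 and made up a large part of that sum. The pan-leukocyte gene Ptprc (3.38 and 4.33), Itgam (2.62 and 2.78) and Cd68 (4.32 and 4.48) were under the filter level. Lyz1 and Lyz2 are near-identical genes whose probes may share signal. Without Ets2, 6 markers were at least 2-fold higher and 4 lower (median 0.46), against 9.69% and 11.2% of all kept genes. Lyz2 was higher there by 1.98 and Lcp1 lower by 1.36. In RNA from a whole culture, more cells of a type and more RNA of these genes per cell cannot be told apart. The part of such cells in the cytokine and protease differences was not tested. Granzyme and mast cell genes had 3 of 6 at least 2-fold higher (Gzmd, Gzme and Mcpt8, by 2.19, 1.95 and 1.37) and 1, Cma1, lower (by 0.04 after raising), while the defining mast cell genes Kit, Cpa3 and Fcer1a were under the filter level on both arrays. The probe sets of Gzmd and Gzme are of a type that can bind related genes.

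**Figure D3:**
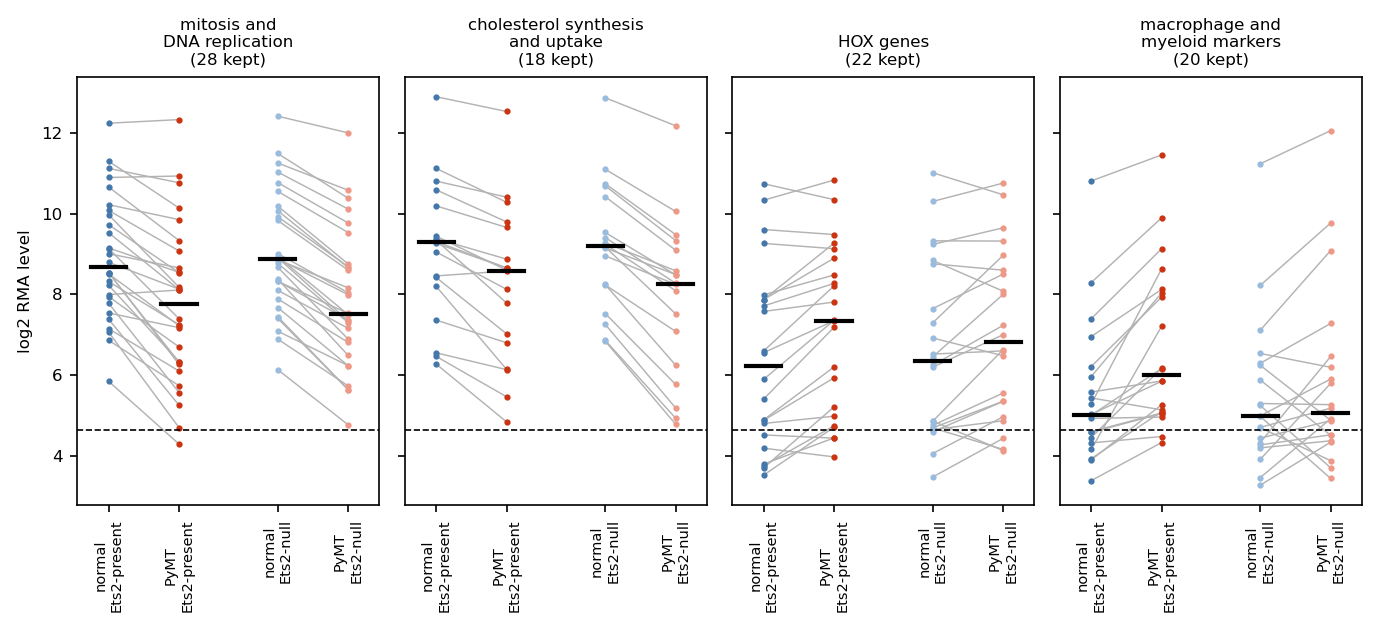
Log2 level of every kept member of 4 lists on each of the 4 arrays (points), with lines joining normal and PyMT arrays of the same Ets2 status, the list's median as a black bar and the filter level dashed. The medians of mitotic and cholesterol genes are lower with PyMT in both pairs; of the macrophage markers, 17 of the 18 above the filter level on an Ets2-present array slope up with Ets2, and the markers go both ways without it.

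Set beside the Ets2-null pair, the PyMT differences gave r = 0.40 over 8687 kept genes (0.43 after raising). This is across genes, which are not independent replicates, and the 2 pairs share platform and processing but no array. With PyMT in the Ets2-null pair, 842 genes were at least 2-fold higher (9.69%) and 970 lower (11.2%). Of the genes at least 2-fold higher, 172 were so in both pairs, 36.5% of the Ets2-present and 20.4% of the Ets2-null list. Of those lower, 259 were so in both, 47.9% and 26.7%. At 4-fold the shared genes were 18 higher (24.7% and 16.1%) and 49 lower (50.5% and 25.5%). Whether higher genes were shared less often than lower ones was not tested.

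Among the genes with the largest differences, all 15 lowest genes, 10.7-fold to 40.2-fold lower after raising, were also at least 2-fold lower in the Ets2-null pair. Besides those already given they were the tetraspanin Tspan13 (9.98 and 5.71), the urea transporter Slc14a1, the axon guidance ligand Sema3a (8.88 and 5.04), the small GTPase Rerg (9.32 and 5.55), the steroid-metabolizing Akr1c14, the acyltransferase Mboat1 (8.81 and 5.26), Fam110c (8.18 and 4.66) and the retinoic acid binder Crabp1 (9.44 and 5.98). The second kept probe set of Fam110c differed by -2.20. Of the 15 highest genes, 5.85-fold to 18.9-fold higher after raising, 8 were at least 2-fold higher in the Ets2-null pair after raising. These were Pilra, Fgf18, Pparg, Foxc2, C1qb, Tspan12, the adhesion molecule Nrcam and the IGF-binding-related Kazald1. The other 7 were Serpinb2, Tslp, Mmp13, Cxcr4, Mmp10, the ribonuclease Rnase2a (4.11 and 7.55) and Lypd1, a small membrane-anchored protein (3.62 and 8.37). Rnase2a was 0.78 and Lypd1 0.30 higher without Ets2 after raising.

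**Figure D4:**
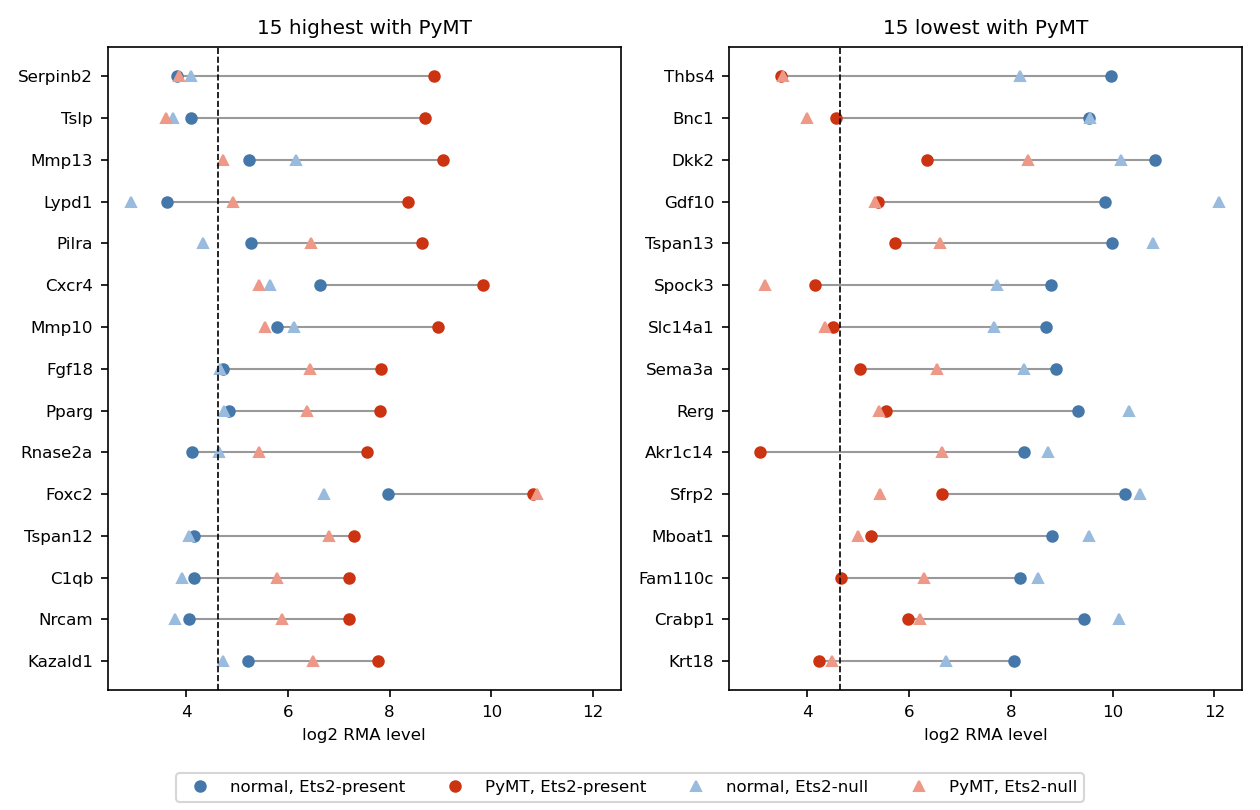
Log2 level of the 15 highest (left) and 15 lowest (right) genes on the 4 arrays, circles for Ets2-present and paler triangles for Ets2-null, blue for normal and red for PyMT, with a line joining the Ets2-present pair; the dashed line is the filter level. On the right the red triangles lie left of the blue ones for all 15 genes, and on the left they do so for Cxcr4, Mmp10 and Mmp13. Serpinb2 and Tslp have both triangles under the filter level, where a difference has no measured direction.

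**Figure D5:**
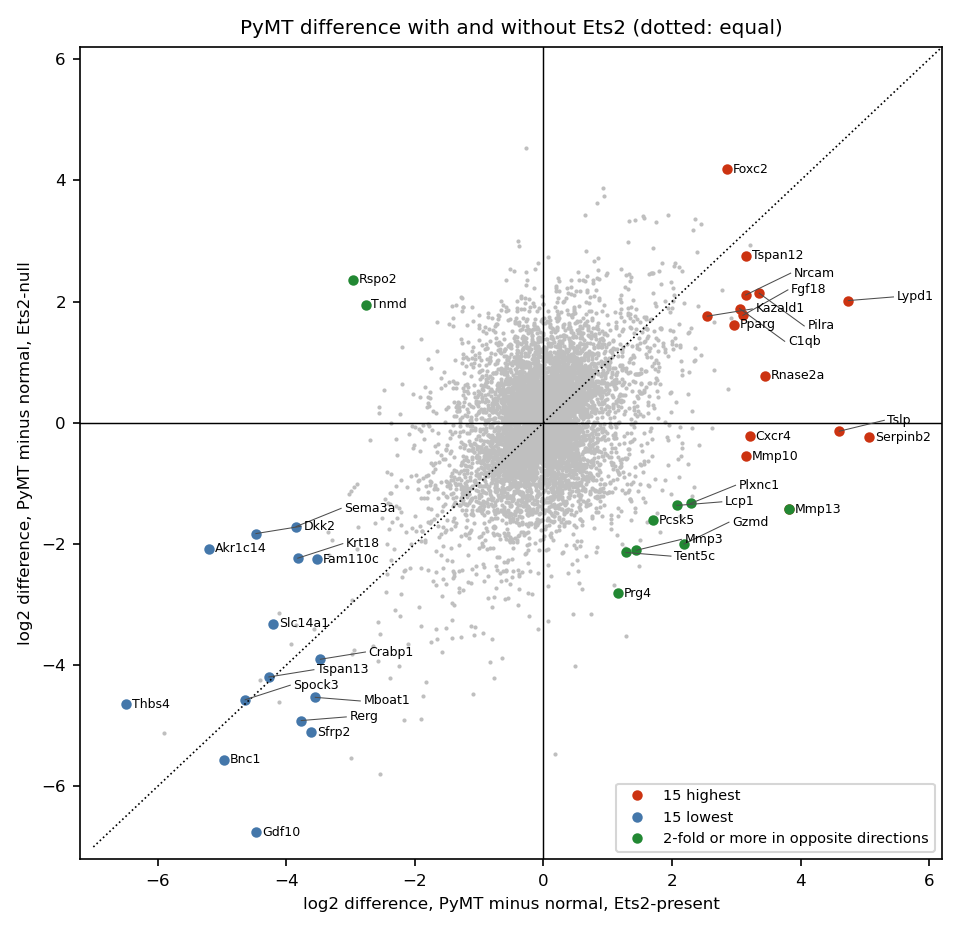
PyMT minus normal log2 difference of each kept gene with Ets2 (horizontal) and without (vertical), 1 array per group, with the 15 highest, the 15 lowest and 10 genes at least 2-fold apart in opposite directions coloured; Mmp13 is both among the highest and among the opposite genes. The 15 lowest genes are below 0 on both axes, and the green genes have differences of opposite sign; the dotted line marks equal differences.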

How the data were processed

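RNA of cultured mammary fibroblasts from 4 genotypes was hybridized to 1 Affymetrix array each. The authors deposited 1 table of log2 probe set values, normalized by RMA (background correction, quantile normalization and median polish); the version is not given in the sources used here. RMA forces the arrays to a common distribution, so a shift of most genes together would not show, and the number of arrays limits the precision.

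Of 22690 probe sets, 20393 had 1 gene in the platform annotation, 691 several and 1606 none; 20364 were matched to RefSeq by gene ID. A gene was read by its brightest probe set (mean of the 4 arrays) and kept when its highest array reached the 40th percentile of the table, 4.63. Differences were PyMT minus normal, and values under 4.63 were raised to it for ranking and for "at least" folds. The genes named are the 15 highest and 15 lowest after raising, Ets2, up to 5 members with the largest difference of each of 29 gene lists and 17 marker lists, and the 10 with the largest gap between pairs of opposite direction; the other names in the text were chosen after their values were seen. Members, lists and alternatives were chosen with earlier results of these data known. Upstream sequences came from RefSeq (GRCm38.p6). The 8 alternatives covered the filter, raising, the probe set and the scaling (cyclic loess in limma 3.58.1 under R 4.3.3). Other steps used Python 3.11.15, pandas 2.3.3, numpy 2.4.6 and matplotlib 3.10.9, and were tested on simulated data.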

Additional observations from a re-analysis of the deposited data

Results flagged for a closer look

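The 10 genes below were at least 2-fold apart in opposite directions in the 2 PyMT comparisons after raising low values. Of 8687 kept genes 35 met that description, 18 of them higher and 17 lower with Ets2. For scale, 314 genes were at least 2-fold higher and 386 lower after raising in the Ets2-present pair. In the Ets2-null pair 523 were higher and 736 lower. Whether 35 is more than unrelated lists of these sizes would share was not tested. The gap is the log2 PyMT difference with Ets2 minus that without. With 1 array per group the difference between the pairs was not tested.

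The gap was largest for the collagenase Mmp13, at 5.24, and was 3.55 for the stromelysin Mmp3. Rspo2, the Wnt enhancer, had a gap of -4.63, with the PyMT Ets2-present array under the filter level. Tnmd, a membrane protein of tendon, was at 8.46 and 5.70 with Ets2 and, from a normal array under the filter level, higher by at least 1.57 without, a gap of -4.33. For the granzyme Gzmd the gap was 4.19. The semaphorin receptor Plxnc1 was at 6.10 and 8.38 with Ets2 and at 6.43 and 5.09 without, a gap of 3.62. Lcp1, an actin-bundling protein of leukocytes, had a gap of 3.44, although its second kept probe set differed by 0.73 in the Ets2-present pair against 2.08 here. The RNA-modifying Tent5c was at 5.34 and 6.63 with Ets2 and at 6.96 and 4.81 without, a gap of 3.43. For Pcsk5, a protease that matures secreted proteins, the levels were 6.44 and 8.14 with Ets2 and 8.10 and 6.49 without, a gap of 3.31, although its other kept probe sets differed by -0.27 to 1.30 in the Ets2-present pair. Prg4, the lubricin gene, was at 5.08 and 6.25 with Ets2 and at 6.75 and, under the filter level, 3.93 without (lower by at least 2.11), a gap of 3.28.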

How the results depend on the processing

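No paired analysis was possible because each group had 1 array, and for the same reason no replicate could be left out. Of 32 recomputed counts of genes 28 were within 1.5 times the count given. A filter at the 60th percentile gave 203 higher and 300 lower genes past 2-fold and 42 higher genes past 4-fold, and a correlation between the pairs of 0.51. Raising low values also left 42 genes at least 4-fold higher. The share of 2-fold calls that were higher was 46.5% and ran from 40.4% at the 60th percentile to 49.0% without probe sets of types that several transcripts share. Of 1586 recomputed gene differences 1520 stayed close, 65 differed in size and 1 changed sign: Fabp4 was at -0.14 without those probe sets. Fabp4 was the 1 kept adipocyte marker, so the median of that list, also -0.14, is the same value. In the same setting the endothelial markers had a median of -0.68 and the sex-linked markers -0.49. The endothelial median, 0.27, was -2.17 at the 60th percentile, where Kdr alone was kept. It was -0.27 with the filter on the Ets2-present arrays and -0.088 after raising. The sex-linked median, 0.595 from 2 genes, was -0.35 with no filter, -0.32 at the 60th percentile and -0.43 as a mean over probe sets. That mean also gave 0.32 for Schwann cell markers (otherwise -0.446) and -0.045 for antigen processing (otherwise 0.25). With no filter the tendon and cartilage median was 0.24. Of 359 recomputed list medians 253 stayed close, 94 differed in size and 12 changed sign, and the cause was not tested. The medians of mitosis (-1.19 to -1.05), HOX (0.49 to 0.99), cholesterol (-0.84 to -0.70), stress response (-0.72 to -0.50) and macrophage genes (0.73 to 1.73) kept their sign under all 8 alternatives. Where both arrays lay under the filter level, as for 547 kept genes, a difference has no measured direction.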

Other observations

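Several gene groups went both ways in the Ets2-present pair. Steroid, retinoid and prostaglandin metabolism genes had 4 of 19 at least 2-fold higher and 4 lower (median 0.12). The hydroxysteroid dehydrogenase Akr1c14 was at least 12.3-fold lower, whereas its relative Akr1c18 was 1.55 higher with Ets2 and under the filter level on both arrays without. The retinaldehyde reductase Dhrs3 was higher by 1.32 and the retinoic acid binder Crabp1 lower by 3.47. Among integrins and adhesion molecules, 1 of 21 was higher, Itga9 (by 2.16), and 5 were lower (median -0.11), led by Icam1, a ligand of leukocyte integrins (8.15 to 6.01). Antioxidant and metallothionein genes had 2 of 16 higher, the quinone reductase Nqo1 (8.46 to 10.36) and the glutathione transferase Gsta4 (by 1.11), and 1 lower, the metallothionein Mt2. Antigen processing genes had 3 of 12 higher and 1 lower, Psmb8, an immunoproteasome subunit (by 1.39), and 1 gene, H2-DMa, was still 2-fold higher after raising. Acute-phase and complement genes had 1 of 8 higher, Serping1, and 1 lower, Cd55.

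Among marker lists, 4 of 6 kept tendon and cartilage genes were lower (Thbs4, Tnmd, Scx and Sox9) and 1, Prg4, was higher, with a median of -1.47. Pericyte markers had 1 of 6 higher, Notch3 (by 1.08, its second kept probe set by 0.62), and a median of 0.52. Of 4 endothelial markers, Eng was at least 2.26-fold higher and Kdr at least 2.80-fold lower. Markers of myofibroblastic tumour fibroblasts had 2 of 10 higher (Inhba and Fap) and 2 lower (Col11a1 and Col12a1). The inflammatory type had 2 of 12 higher (Il11 and Cxcl2, the latter by 0.07 after raising) and 2 lower (Cxcl5 and Cxcl12). The antigen-presenting type had 1 of 5 higher, H2-Ab1 (by 0.10 after raising), and 1 lower, Slpi. Cxcl2 and H2-Ab1 were kept only through the PyMT Ets2-present array, so they could only be higher. None of 4 Schwann cell or 5 skeletal muscle markers was 2-fold apart. Of 2 kept sex-linked markers, 1 was higher as deposited and none after raising. Epithelial markers had 2 of 8 higher (Krt19 and Grhl2, the latter by 0.02 after raising) and 2 lower (Krt18 and Trp63, the latter under the filter level on both arrays).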
